A study of Rattus norvegicus with 8 samples.

Results

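The 9 genes described here encode proteins often used to mark amnion and trophoblast, the tissues outside the embryo proper that border the early epiblast. They are the keratin genes Krt7, Krt8, Krt18 and Krt19, the homeobox genes Dlx3 and Dlx5, the zinc finger factor genes Gata2 and Gata3, and Tfap2a, which encodes the transcription factor AP-2 alpha. They were chosen by symbol from that tissue association, with earlier results of these data known. All 9 of 9 were found among the 22228 named genes of the expression table. The study sequenced RNA of rat cells at 4 stages of a culture route that starts from stem cells of the embryo and ends with primordial germ cell-like cells (PGCLC), a model of the precursors of eggs and sperm. Each stage has 2 libraries, 8 in all.

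The strain is Crlj:WI at every stage. Embryonic stem cells (ESC) were kept on mouse embryonic fibroblast feeders with the MEK inhibitor PD0325901 (1 µM), the GSK3 inhibitor CHIR99021 (3 µM) and rat LIF (1000 U/ml). Epiblast-like cells (EpiLC) were aggregated for 60 h with activin A (20 ng/ml), bFGF (12 ng/ml) and 1% knockout serum replacement. PGCLC_d3 cells had 3 days with BMP4 (500 ng/ml), SCF (100 ng/ml), EGF (50 ng/ml) and LIF (1000 U/ml) and were then sorted for a Nanos3 reporter that carries tdTomato. For PGCLC_d3ag3, 5000 such cells were aggregated for 3 days with 50000 cells from female gonads at E15.5, depleted of c-KIT-positive cells, in 5% knockout serum replacement, and reporter-positive cells were sorted again. The labels give the genotype as wild type at all 4 stages although both PGCLC stages were sorted on the reporter. Whether the 2 libraries of a stage are separate cultures is not said by any label, and p-values here reflect only how far the libraries vary, possibly for technical reasons.

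Keratins are the intermediate filament proteins of epithelia. A filament is built from pairs of a type II and a type I keratin, and KRT8 with KRT18 is the first such pair laid down in mammalian embryos, in trophectoderm. KRT7 (type II) and KRT19 (type I) join them in simple epithelia, amnion and trophoblast included. GATA2, GATA3 and AP-2 factors regulate genes of trophoblast. DLX3 is needed for the placenta in mice, and DLX5 is active in human trophoblast. BMP signalling induces both amnion-type genes and primordial germ cells in culture, and the germ cell factor AP-2 gamma (Tfap2c) belongs to the same family as AP-2 alpha.

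Depth in reads cannot be read from the deposited values. Steps between the lowest values put the libraries at 1.00 to 2.38 times the depth of ESC replicate 1, with the 2 PGCLC_d3ag3 libraries the deepest at 2.17 and 2.38. The 2 libraries of a stage correlated at a Pearson r of 0.9946 to 0.9975 across the tested genes, which are not independent replicates. Naive ESC markers (the most abundant were Nanog, Zfp42, Tbx3 and Esrrb) summed to between 2049 and 2064 TPM in ESC and at most 199.8 TPM elsewhere, and EpiLC markers (led by Dnmt3b, Pou3f1, Dnmt3a and Otx2) to between 3147 and 3384 TPM in EpiLC and at most 170.1 TPM elsewhere, although the EpiLC marker Fgf5 was at or near 0 at every stage. The germ cell list did not separate the stages in this way. It summed to between 1465 and 1482 TPM in ESC, 207 and 247 TPM in EpiLC, 1801 and 1822 TPM in PGCLC_d3, and 2364 and 2447 TPM in PGCLC_d3ag3. Of its members, Dppa3 was highest in ESC, with a mean of 1309 TPM there and 382 TPM in PGCLC_d3. Ddx4 and Dazl stood at means of 1.29 and 0.369 TPM in PGCLC_d3, below their EpiLC means of 148 and 13.6 TPM, and at 202 and 785 TPM in PGCLC_d3ag3. Kit and Tfap2c were highest in PGCLC_d3, at means of 398 and 492 TPM. Nanos3, the gene of the sorting reporter, stood at 11.0 and 10.7 TPM in PGCLC_d3 and 17.2 and 15.6 TPM in PGCLC_d3ag3, and did not exceed 0.905 TPM in the libraries before BMP4.

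Of the 9 genes, 6 had their highest mean in PGCLC_d3: Krt8, Krt18, Dlx3, Dlx5, Gata2 and Gata3. Krt19 and Tfap2a were highest in ESC, Krt7 was highest in EpiLC, and none was highest in PGCLC_d3ag3. Among all 13571 tested genes, 32.9% were highest in PGCLC_d3, 21.7% in ESC, 20.9% in EpiLC and 24.4% in PGCLC_d3ag3. The filter was 1 TPM in at least 2 libraries. Of the 9 genes, Gata2 and Gata3 passed it through PGCLC_d3 alone, and Tfap2a through ESC alone. The direction of a difference of these 3 at the steps into or out of that stage was therefore fixed by the filter. Dlx3 and Dlx5 passed through PGCLC_d3 and PGCLC_d3ag3 alone, so their rises there over ESC and EpiLC are tied to the filter too. The 4 keratins passed through 3 or 4 stages.

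**Figure D1:**
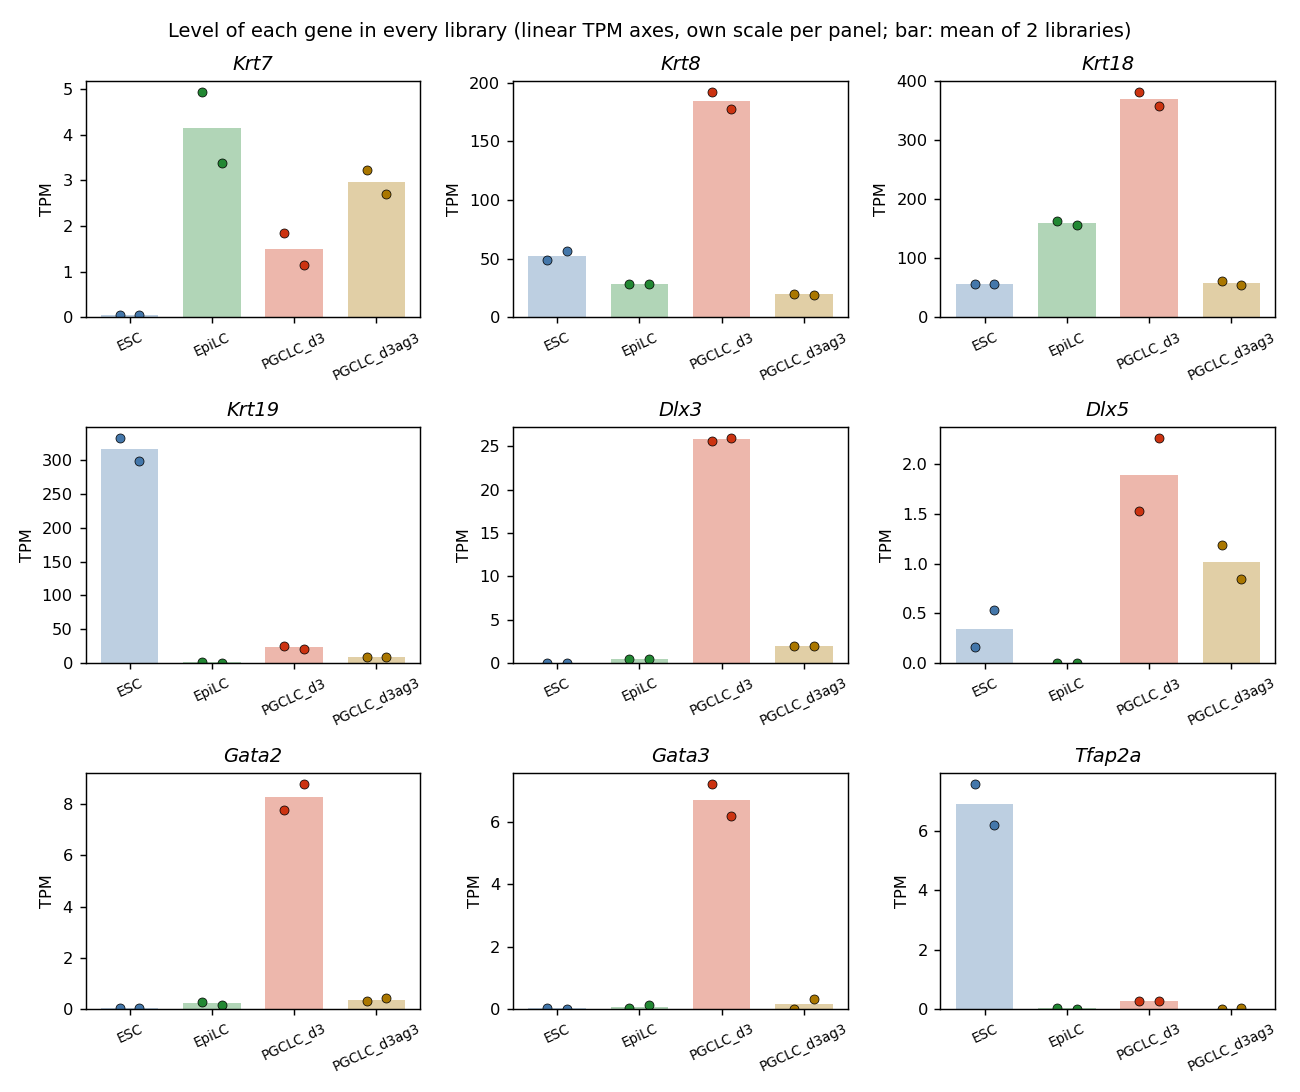
Expression of the 9 genes in TPM (vertical axes, linear, each panel with its own scale) in ESC, EpiLC, PGCLC_d3 and PGCLC_d3ag3. Points are single libraries and bars the mean of 2 libraries. In 6 panels the peak is in PGCLC_d3. Krt19 and Tfap2a peak in ESC, and Krt7 peaks in EpiLC at a mean of 4.15 TPM.

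The step from ESC to EpiLC shows how the genes changed on leaving the naive state. In EpiLC, Krt7, Krt18 and Dlx3 were higher than in ESC, Krt8, Krt19 and Tfap2a were lower, and Dlx5, Gata2 and Gata3 did not pass the test (limma on log2(TPM+1), Benjamini-Hochberg adjusted p under 0.05). That is 6 of 9 genes called changed, where 67.3% of all tested genes were called, 35.4% higher and 31.8% lower. The 6 include Tfap2a, which passed the filter through ESC alone. The step from EpiLC to PGCLC_d3 is the one with BMP4. In PGCLC_d3, 8 of 9 genes were higher than in EpiLC and Krt7 was lower, where 74.9% of all tested genes were called, 47.3% higher and 27.6% lower. The 8 include Gata2 and Gata3, which passed the filter through PGCLC_d3 alone. Dlx3 and Dlx5, also among the 8, passed it through the PGCLC stages alone. The 8 include Tfap2a as well, whose call was lost under both rescalings described below. The step from PGCLC_d3 to PGCLC_d3ag3 follows the sorted cells into the gonadal aggregate. In PGCLC_d3ag3, 8 of 9 genes were lower than in PGCLC_d3 and Krt7 was higher, where 70.4% of all tested genes were called, 25.7% higher and 44.8% lower. Gata2 and Gata3 are again among the 8, as are Dlx5 and Tfap2a, whose calls were lost under both rescalings. Neighbouring steps share the libraries of the stage between them.

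On the log2(TPM+1) scale the median of all tested genes was 0.21 for PGCLC_d3 versus EpiLC, -0.18 for PGCLC_d3ag3 versus PGCLC_d3 and 0.25 for PGCLC_d3 versus ESC. Median-of-ratios rescaling brought these medians to -0.02, 0.00 and 0.00. It also brought the share of called genes that were higher from 63.2% to 49.2%, from 36.4% to 50.0% and from 64.4% to 49.8% at these comparisons. Under quantile normalization the shares were 51.1%, 49.4% and 53.1%. Member differences below are as fitted, and for differences not much larger than these shifts the value relative to the median of all tested genes is added.

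**Figure D2:**
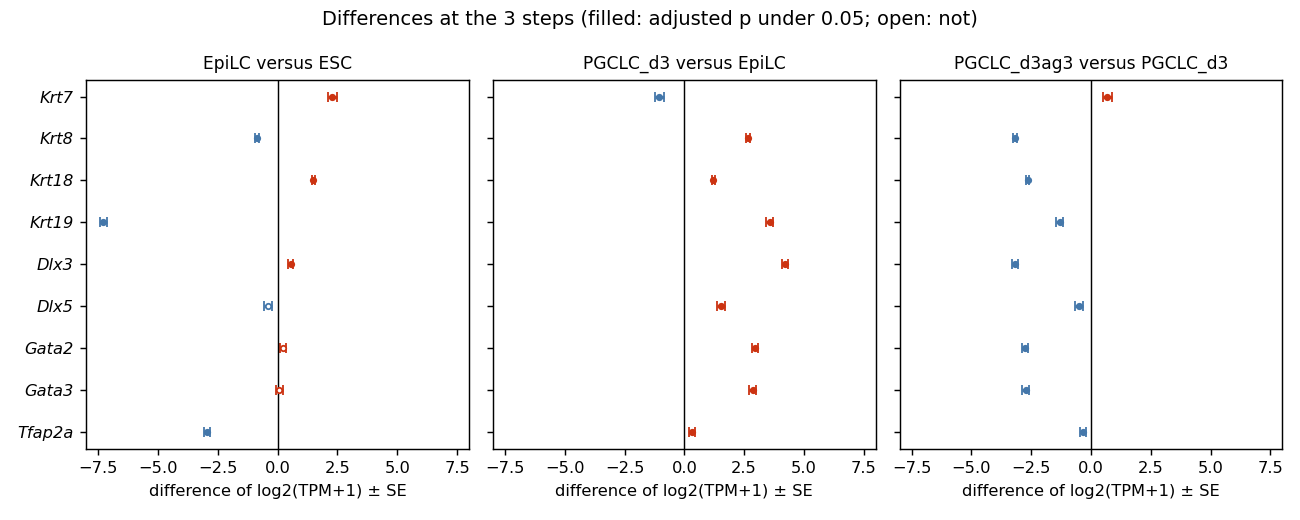
Difference of log2(TPM+1) between neighbouring stages for the 9 genes (horizontal axes, first-named stage minus second; bars are the limma standard error from 8 libraries). Filled points have an adjusted p under 0.05. All points but that of Krt7 lie right of 0 for PGCLC_d3 versus EpiLC and left of 0 for PGCLC_d3ag3 versus PGCLC_d3.

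Krt8 and Krt18 encode a type II and type I pair and are adjacent protein-coding genes on rat chromosome 7. Gata2 and Gata3 lie on chromosomes 4 and 17. These 4 genes share the PGCLC_d3 peak, and RefSeq promoters (assembly GRCr8) matched 4 of the 9 genes, these 4. The other promoters, those of Krt7, Krt19, Dlx3, Dlx5 and Tfap2a, were not analysed here. Each sequence below runs 5′ to 3′ on the gene's strand, from 250 bases before to 50 bases after the annotated start. Capitals mark matches, on either strand, to an AP-2 motif (GCCNNNGGC), a GATA motif (AGATAA), a GC-rich SMAD motif (GGCGCC) and a TATA motif (TATAAA). SMADs carry the BMP signal to DNA, which is why that motif was searched.

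Krt8, GRCr8 chr7:135010290-135010589, minus strand: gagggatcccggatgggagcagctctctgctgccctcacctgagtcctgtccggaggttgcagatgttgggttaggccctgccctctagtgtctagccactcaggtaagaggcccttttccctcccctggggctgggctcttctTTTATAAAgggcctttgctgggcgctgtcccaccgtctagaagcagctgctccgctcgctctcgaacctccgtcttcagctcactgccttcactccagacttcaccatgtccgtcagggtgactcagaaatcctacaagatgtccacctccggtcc

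Krt18, GRCr8 chr7:135035918-135036217, plus strand: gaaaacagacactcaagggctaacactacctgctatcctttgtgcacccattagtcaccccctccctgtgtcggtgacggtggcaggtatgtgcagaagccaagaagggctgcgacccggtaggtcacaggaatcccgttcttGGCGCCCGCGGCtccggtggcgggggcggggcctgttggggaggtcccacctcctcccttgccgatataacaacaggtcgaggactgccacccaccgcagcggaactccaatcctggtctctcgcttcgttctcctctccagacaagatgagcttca

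Gata2, GRCr8 chr4:122216031-122216330, plus strand: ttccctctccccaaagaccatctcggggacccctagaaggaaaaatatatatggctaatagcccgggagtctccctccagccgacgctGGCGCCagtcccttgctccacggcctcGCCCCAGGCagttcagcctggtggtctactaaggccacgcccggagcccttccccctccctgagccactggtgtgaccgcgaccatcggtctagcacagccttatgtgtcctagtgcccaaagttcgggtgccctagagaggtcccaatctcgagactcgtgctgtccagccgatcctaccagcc

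Gata3, GRCr8 chr17:73553298-73553597, plus strand: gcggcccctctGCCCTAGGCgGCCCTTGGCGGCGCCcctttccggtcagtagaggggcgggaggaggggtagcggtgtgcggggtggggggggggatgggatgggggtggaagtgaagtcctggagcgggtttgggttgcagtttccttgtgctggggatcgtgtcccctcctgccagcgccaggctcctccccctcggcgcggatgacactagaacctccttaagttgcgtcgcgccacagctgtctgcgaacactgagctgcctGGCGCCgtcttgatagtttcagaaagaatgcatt

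The Krt8 promoter held a pair of overlapping TATA matches, which begin at positions -106 and -104, where the annotated start is position 1, and none of the other motifs. In the Krt8 sequence the bases from position 1 on read ATG. The distance of the TATA matches from the start of transcription was therefore not established. The Krt18 promoter held 1 AP-2 match and 1 SMAD match that overlap each other, beginning at positions -104 and -107. The Gata2 promoter held 1 AP-2 match and 1 SMAD match apart from each other. The Gata3 promoter held 2 AP-2 matches and 2 SMAD matches, 1 of the SMAD matches directly beside an AP-2 match and the other after the start. Of 33469 promoters of the same length, 15.1% held the AP-2 motif, 11.6% the GATA motif, 11.0% the SMAD motif and 14.2% the TATA motif. No GATA match was found in these 4 windows. Their GC content was 59.0% for Krt8, 60.3% for Krt18, 61.3% for Gata2 and 65.0% for Gata3, against a median of 51.7% over all promoters. A match is a description of the letters and not of binding.

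Krt8, the type II keratin of early embryonic epithelium, was measured at 49.0 and 56.2 TPM in ESC, 28.0 and 28.2 TPM in EpiLC, 192 and 178 TPM in PGCLC_d3, and 19.7 and 19.4 TPM in PGCLC_d3ag3. No library of one stage overlapped another, and PGCLC_d3 stood apart at the top. Krt8 fell in EpiLC relative to ESC, by 0.88 on the log2 scale (SE 0.08, limma adjusted p = 5.87e-06). It rose in PGCLC_d3 relative to EpiLC by 2.67 (SE 0.08, limma adjusted p = 2.45e-09), where the mean was 6.58 times that of EpiLC. It fell again in PGCLC_d3ag3, to 19.6 ± 0.242 TPM, against 185 ± 9.93 TPM in PGCLC_d3 (SD, n = 2 each), a ratio of 0.106. That left PGCLC_d3ag3 below ESC too, by a log2 difference of -1.38 (SE 0.08, limma adjusted p = 1.45e-07).

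Krt18, the type I partner of Krt8, was measured at 55.9 and 55.8 TPM in ESC, 163 and 156 TPM in EpiLC, 382 and 358 TPM in PGCLC_d3, and 61.6 and 55.1 TPM in PGCLC_d3ag3. Its libraries separated at every step but overlapped between PGCLC_d3ag3 and ESC. It was higher in EpiLC than in ESC by 1.50 (SE 0.07, limma adjusted p = 3.72e-08), the opposite direction to Krt8 at the same step. It was higher again in PGCLC_d3 than in EpiLC by 1.21 (SE 0.07, limma adjusted p = 1.42e-07), or 1.00 relative to the median of all tested genes. In PGCLC_d3ag3 it fell to 58.4 ± 4.65 TPM, against 370.0 ± 16.5 TPM in PGCLC_d3 (SD, n = 2 each). PGCLC_d3ag3 and ESC differed by 0.06 (SE 0.07, limma adjusted p = 0.433), a difference whose sign turned with rescaling. Processed copies of KRT8 and KRT18 genes are known from mammalian genomes, and how reads shared with such copies were counted is not given in the sources used here.

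Krt19, a type I keratin without the usual tail domain, had the widest range of the 4 keratins. It was measured at 332 and 299 TPM in ESC, 1.34 and 0.753 TPM in EpiLC, 25.1 and 21.1 TPM in PGCLC_d3, and 8.24 and 9.16 TPM in PGCLC_d3ag3. ESC stood highest and EpiLC lowest, and no stages overlapped. In EpiLC the mean was 0.00332 times that of ESC, a log2 difference of -7.29 (SE 0.15, limma adjusted p = 2.65e-10). In PGCLC_d3 it was 22.0 times that of EpiLC (log2 difference 3.57, SE 0.15, limma adjusted p = 1.88e-08) but still 0.0732 times that of ESC. The PGCLC_d3ag3 mean was 0.377 times that of PGCLC_d3 (log2 difference -1.31, SE 0.15, limma adjusted p = 2.94e-05) and 8.30 times that of EpiLC.

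Krt7, a type II keratin of ducts, amnion and trophoblast, ran against the other 8 genes at both later steps. It was measured at 0.0570 and 0.0417 TPM in ESC, 4.93 and 3.37 TPM in EpiLC, 1.85 and 1.15 TPM in PGCLC_d3, and 3.22 and 2.70 TPM in PGCLC_d3ag3. It was near 0 in ESC and low elsewhere, with no overlap between stages. Krt7 was higher in EpiLC than in ESC by 2.28 on the log2(TPM+1) scale (SE 0.18, limma adjusted p = 2.6e-06). It was lower in PGCLC_d3 than in EpiLC by a difference of -1.04 (SE 0.18, limma adjusted p = 0.000534), or -1.25 relative to the median of all tested genes. It was higher in PGCLC_d3ag3 than in PGCLC_d3 by 0.67 (SE 0.18, limma adjusted p = 0.0083), or 0.85 relative to that median. The call was lost without PGCLC_d3 replicate 2 (0.47, limma adjusted p = 0.0815), without PGCLC_d3ag3 replicate 1 (0.58, limma adjusted p = 0.0503) and with no filter on low values (limma adjusted p = 0.0574). Between PGCLC_d3ag3 and EpiLC the difference was -0.37 (SE 0.18, limma adjusted p = 0.0941). It was -0.15 without EpiLC replicate 1, and it passed without EpiLC replicate 2 (-0.59, limma adjusted p = 0.0284) and with the replicate number as a block (limma adjusted p = 0.0458).

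The make-up of the keratin pool is described next, as ratios within a library. Krt18 had 1.14 and 0.994 TPM per TPM of Krt8 in ESC, 5.81 and 5.53 in EpiLC, 1.99 and 2.01 in PGCLC_d3, and 3.12 and 2.84 in PGCLC_d3ag3. The pair was near equal in ESC, and Krt18 exceeded Krt8 in every other library. Krt19 made up 85.6% and 84.3% of the type I sum (Krt18 plus Krt19) in ESC, 0.819% and 0.480% in EpiLC, 6.17% and 5.56% in PGCLC_d3, and 11.8% and 14.3% in PGCLC_d3ag3. Type I exceeded type II (Krt7 plus Krt8) in all 8 libraries, by 7.91 and 6.31 times in ESC, 4.98 and 4.97 in EpiLC, 2.10 and 2.12 in PGCLC_d3, and 3.04 and 2.91 in PGCLC_d3ag3. In the first 2 measures the libraries of a stage stayed closer to each other than to any other stage, while in the third ESC replicate 2 lay nearer to EpiLC than to ESC replicate 1. The ratios are given as a description and were not tested. An exact two-sided permutation test of 2 libraries against 2 cannot go below p = 0.333. Of the summed TPM of all 50 keratin genes in the table, the 4 genes made up 95.1% in both ESC libraries, 93.6% and 92.9% in EpiLC, 97.6% in both PGCLC_d3 libraries, and 70.5% and 70.9% in PGCLC_d3ag3.

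**Figure D3:**
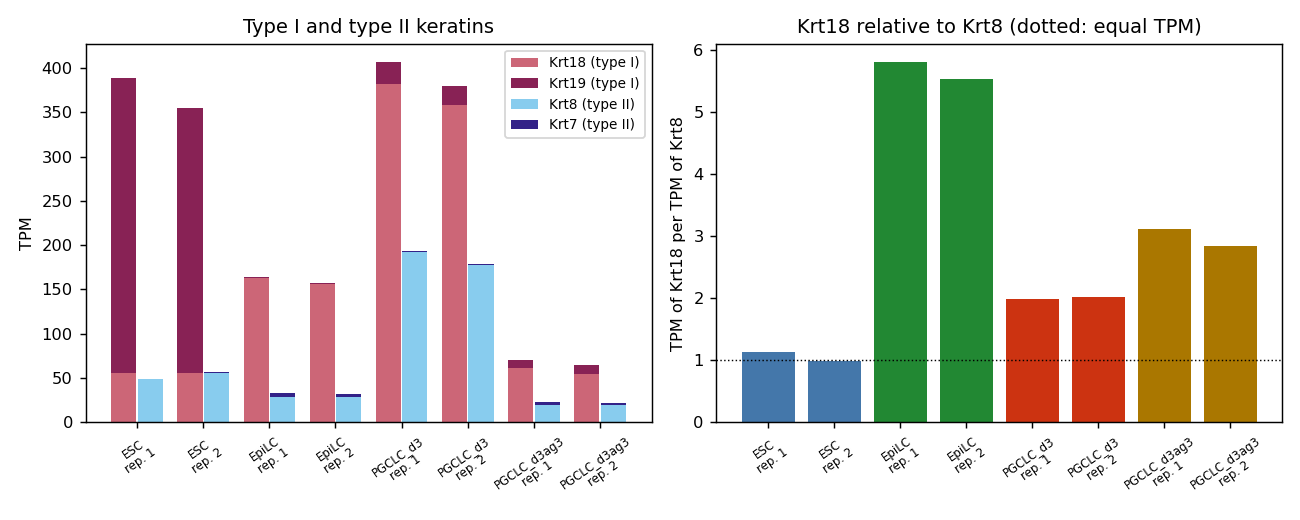
Left, TPM of the type I keratins Krt18 and Krt19 and of the type II keratins Krt8 and Krt7, stacked by type, in each of the 8 libraries (linear axis). Right, TPM of Krt18 per TPM of Krt8 in each library, with a dotted line at equal TPM. ESC type I is mostly Krt19, and the ratio on the right is highest in EpiLC at 5.81 and 5.53.

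Of 13 other keratins of simple and stratified epithelia that were listed, Krt10 alone passed the filter. Krt10, a type I keratin of upper epidermis, was measured at 5.65 and 7.24 TPM in ESC, 8.63 and 9.69 TPM in EpiLC, 9.88 and 9.13 TPM in PGCLC_d3, and 10.5 and 11.0 TPM in PGCLC_d3ag3. It was higher in EpiLC than in ESC (0.46, SE 0.13, limma adjusted p = 0.0118) and not called at the later steps (limma adjusted p = 0.75 and adjusted p = 0.289). The basal epidermal keratins Krt5, Krt14 and Krt15 and the gut keratin Krt20 did not exceed 1.06, 0.997, 1.20 and 0.852 TPM in any library.

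Dlx3, a homeobox factor of placenta and ectoderm, had no TPM above 0 in ESC, and was measured at 0.428 and 0.483 TPM in EpiLC, 25.6 and 25.9 TPM in PGCLC_d3, and 1.94 and 1.94 TPM in PGCLC_d3ag3. PGCLC_d3 was far above the rest, and no stages overlapped. Dlx3 was higher in PGCLC_d3 than in EpiLC by 4.20 on the log2 scale (SE 0.12), the largest difference of the 9 genes at that step. It fell to 1.94 TPM in PGCLC_d3ag3, 0.0753 times the PGCLC_d3 mean (log2 difference -3.19, SE 0.12, limma adjusted p = 3.04e-08). That level was still above EpiLC (1.02, SE 0.12). The differences of the PGCLC stages from EpiLC are given without a test, because Dlx3 passed the filter through the PGCLC stages alone. The rise in EpiLC over ESC was 0.54 (SE 0.12, limma adjusted p = 0.00219).

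Dlx5, a homeobox factor of skeleton and face as well as of human trophoblast, stayed low throughout. It was measured at 0.161 and 0.529 TPM in ESC, was listed at 0 in both EpiLC libraries, and was measured at 1.53 and 2.26 TPM in PGCLC_d3 and 1.19 and 0.847 TPM in PGCLC_d3ag3. It was higher in PGCLC_d3 than in EpiLC by 1.52 (SE 0.17). This rise is given without a test, because Dlx5 passed the filter through the PGCLC stages alone. The lower level in PGCLC_d3ag3 than in PGCLC_d3 (-0.52, SE 0.17, limma adjusted p = 0.0234), or -0.34 relative to the median of all tested genes, did not hold under median-of-ratios rescaling (-0.38, limma adjusted p = 0.0761) or quantile normalization (-0.27, limma adjusted p = 0.207). This call was lost as well without PGCLC_d3 replicate 2 (-0.33) and without PGCLC_d3ag3 replicate 2 (-0.39). The same held with no filter on low values (limma adjusted p = 0.0968) and with a pseudocount of 0.1 (limma adjusted p = 0.124). EpiLC and ESC differed by -0.41 (SE 0.17, limma adjusted p = 0.0584), a difference that passed under the same rescalings (limma adjusted p = 0.0474 and adjusted p = 0.0215). It was -0.22 without ESC replicate 2 and -0.61 without ESC replicate 1 (limma adjusted p = 0.0275). It passed also without either PGCLC_d3 library (limma adjusted p = 0.0464 and adjusted p = 0.0458), with only the 4 libraries compared (limma adjusted p = 0.0378) and with a pseudocount of 0.1 (limma adjusted p = 0.0031).

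The other DLX genes are arranged in pairs with a neighbour, Dlx3 with Dlx4, Dlx5 with Dlx6 and Dlx1 with Dlx2. Dlx2 alone of these 4 passed the filter. It was at 0 throughout ESC, and stood at 0 and 0.0800 TPM in EpiLC, 4.46 and 6.84 TPM in PGCLC_d3, and 0 and 0.252 TPM in PGCLC_d3ag3. Dlx2 too passed the filter through PGCLC_d3 alone, so its differences at the steps into and out of that stage, 2.65 and -2.55 on the log2 scale, are given without a test. Dlx4, the neighbour of Dlx3, reached 0.668 and 0.708 TPM in PGCLC_d3. Dlx6, the neighbour of Dlx5, stood at 0.770 and 0.137 TPM in PGCLC_d3ag3 and 0.564 and 0.245 TPM in PGCLC_d3, with overlap between the libraries of these stages. Dlx1 did not exceed 0.571 TPM in any library.

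Gata2, a GATA factor of trophoblast and blood progenitors, was measured at 0.0295 and 0.0217 TPM in ESC, 0.282 and 0.139 TPM in EpiLC, 7.79 and 8.79 TPM in PGCLC_d3, and 0.301 and 0.425 TPM in PGCLC_d3ag3. It was below 0.5 TPM everywhere but in PGCLC_d3. The difference of PGCLC_d3 from EpiLC was 2.94 (SE 0.13) and that of PGCLC_d3ag3 from PGCLC_d3 was -2.77 (SE 0.13). Both are given without a test, because Gata2 passed the filter through PGCLC_d3 alone. Gata2 was higher in PGCLC_d3ag3 than in ESC by 0.41 (SE 0.13, limma adjusted p = 0.0134), which did not hold without ESC replicate 2 (limma adjusted p = 0.0535) or without PGCLC_d3ag3 replicate 2 (limma adjusted p = 0.0545).

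Gata3, which acts in trophectoderm of the mouse, was measured at 0.0281 and 0 TPM in ESC, 0.0246 and 0.113 TPM in EpiLC, 7.24 and 6.21 TPM in PGCLC_d3, and 0 and 0.332 TPM in PGCLC_d3ag3. PGCLC_d3 again stood alone, and the libraries of the other 3 stages overlapped. The difference of PGCLC_d3 from EpiLC was 2.85 (SE 0.15) and that of PGCLC_d3ag3 from PGCLC_d3 was -2.74 (SE 0.15). These too are given without a test, because Gata3 also passed the filter through PGCLC_d3 alone. Below PGCLC_d3, the means of Gata2 and Gata3 ran in the order PGCLC_d3ag3, EpiLC and ESC. No neighbours in that order were called against each other.

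Other GATA genes followed other patterns. Gata4, of endoderm and gonad, was higher in PGCLC_d3ag3, at 4.70 and 5.12 TPM, than in PGCLC_d3, at 2.66 and 2.55 TPM (0.71, SE 0.12, limma adjusted p = 0.00046). Gata6, of endoderm, stood at 1.32 and 2.85 TPM in PGCLC_d3ag3 and 2.90 and 2.00 TPM in PGCLC_d3 and was not called between them (limma adjusted p = 0.445). Both were higher in PGCLC_d3 than in EpiLC, by 1.62 and 1.73 on the log2 scale. Gata4 and Gata6 passed the filter through the PGCLC stages alone, so these rises are given without a test. Gata1, the erythroid factor, was highest in ESC, at 6.31 and 5.41 TPM, and lowest in PGCLC_d3, at 0.0490 and 0 TPM. Gata5 did not exceed 0.202 TPM.

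Tfap2a, the gene of AP-2 alpha, was measured at 7.59 and 6.22 TPM in ESC, 0.0303 and 0 TPM in EpiLC, 0.267 and 0.277 TPM in PGCLC_d3, and 0 and 0.0147 TPM in PGCLC_d3ag3. ESC stood alone, and no other library reached 0.3 TPM. It was lower in EpiLC than in ESC by a difference of -2.96 (SE 0.12), and lower in PGCLC_d3 than in ESC by -2.63 (SE 0.12). Tfap2a passed the filter through ESC alone, so these differences from ESC are given without a test. The small rise in PGCLC_d3 over EpiLC, 0.33 (SE 0.12, limma adjusted p = 0.0361), was 0.12 relative to the median of all tested genes. It was lost under median-of-ratios rescaling (limma adjusted p = 0.0746), under quantile normalization (limma adjusted p = 0.087) and without any 1 of the 4 libraries (limma adjusted p between 0.0774 and 0.117). The same holds for its fall in PGCLC_d3ag3 relative to PGCLC_d3, -0.34 (SE 0.12, limma adjusted p = 0.0336) or -0.16 relative to that median, with adjusted p = 0.0673 and adjusted p = 0.0844 under the 2 rescalings and between 0.0611 and 0.112 without any 1 of the 4 libraries.

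Tfap2c, the family member of germ cells and trophoblast, was measured at 34.8 and 37.2 TPM in ESC, 8.22 and 8.71 TPM in EpiLC, 487 and 498 TPM in PGCLC_d3, and 307 and 294 TPM in PGCLC_d3ag3. The PGCLC_d3 libraries, with the most Tfap2c, had less than 1 TPM of Tfap2a. Tfap2c was higher in PGCLC_d3 than in EpiLC by 5.70 (SE 0.06, limma adjusted p = 1.52e-11) and lower in PGCLC_d3ag3 than in PGCLC_d3 by -0.71 (SE 0.06, limma adjusted p = 5.77e-06). Tfap2e was measured at 3.06 and 3.65 TPM in PGCLC_d3 and 0.236 and 0.122 TPM in EpiLC (1.88, SE 0.22, limma adjusted p = 2.58e-05). Tfap2b and Tfap2d did not exceed 0.0267 TPM.

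Set against ESC, all 9 genes were called in PGCLC_d3, 7 higher and Krt19 and Tfap2a lower, where 77.0% of all tested genes were called, 49.6% higher and 27.4% lower. Gata2 and Gata3 had passed the filter through PGCLC_d3 alone and Tfap2a through ESC alone. Dlx3 and Dlx5 had passed it through the PGCLC stages alone. In PGCLC_d3ag3 against ESC, 7 of 9 were called, where 77.3% of all tested genes were, 42.5% higher and 34.8% lower. The called genes were Krt7, Dlx3, Dlx5 and Gata2, all higher, and Krt8, Krt19 and Tfap2a, all lower, with Tfap2a in the test through ESC alone. Dlx3 and Dlx5 were in the test through the PGCLC stages alone. The Dlx5 call there (0.59, SE 0.17) was lost without ESC replicate 1 (0.39) and without PGCLC_d3ag3 replicate 1 (0.47). It was lost as well with no filter on low values. In PGCLC_d3ag3 against EpiLC, 5 of 9 were called, where 77.7% of all tested genes were, 41.0% higher and 36.7% lower. The called genes were Krt19, Dlx3 and Dlx5, all higher, and Krt8 and Krt18, both lower. Dlx3 and Dlx5 were again in the test through the PGCLC stages alone.

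Counts of the gene lists that follow are to be read beside all tested genes. Of these, 47.3% were higher and 27.6% lower in PGCLC_d3 versus EpiLC, 25.7% and 44.8% in PGCLC_d3ag3 versus PGCLC_d3, and 35.4% and 31.8% in EpiLC versus ESC, where the median difference was 0.04. Some counted list genes passed the filter only through stages where they were high, which fixed their direction at the step into those stages. Postn passed through PGCLC_d3ag3 alone, and Wnt6, Smad6 and Ppl through the PGCLC stages alone.

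Other trophoblast genes moved in both directions at the BMP4 step. Of 21 listed genes 17 were tested, and 10 rose and 5 fell in PGCLC_d3 relative to EpiLC, with a median of 0.79 against 0.21 for all tested genes. Hand1, a factor of trophoblast giant cells and of amnion and mesoderm, reached 53.6 and 53.4 TPM in PGCLC_d3, against 3.55 and 2.83 TPM in EpiLC (3.71, SE 0.18, limma adjusted p = 5.37e-08). Cdx2, a trophectoderm factor of the mouse, stood at 28.1 and 18.6 TPM in PGCLC_d3 and 0.0504 and 0.235 TPM in EpiLC, and at 116 and 135 TPM in ESC, where it was highest. Eomes, a factor of mouse trophoblast stem cells and of mesendoderm, fell to 1.90 and 1.48 TPM in PGCLC_d3, against 45.8 and 44.4 TPM in EpiLC (-4.10, SE 0.12, limma adjusted p = 2.38e-09). Elf5, another trophoblast stem cell factor of the mouse, did not exceed 0.109 TPM in any library. The orphan receptor gene Esrrb and Cdh3, which encodes P-cadherin, rose too (3.62 and 5.35, limma adjusted p = 8.49e-09 and adjusted p = 2.09e-10). The transferrin receptor gene Tfrc rose by 0.36 (SE 0.11, limma adjusted p = 0.0149). In ESC the means were 118 TPM for Esrrb, 0.0699 TPM for Cdh3 and 101 TPM for Tfrc. In PGCLC_d3 they were 20.3, 102 and 80.9 TPM.

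In PGCLC_d3ag3 relative to PGCLC_d3, 11 of these 17 trophoblast genes fell and 1 rose, with a median of -0.61 against -0.18 for all tested genes. Hand1 fell to 0.0512 and 0.517 TPM in PGCLC_d3ag3, against 53.6 and 53.4 TPM in PGCLC_d3 (-5.43, SE 0.18, limma adjusted p = 1.72e-08). Cdx2 fell to 1.48 and 1.21 TPM (-3.35, SE 0.19, limma adjusted p = 3.53e-07). Cdh3 stayed at 70.0 and 71.6 TPM in PGCLC_d3ag3, against 99.6 and 104 TPM in PGCLC_d3 (-0.52, SE 0.10, limma adjusted p = 0.000971). In EpiLC relative to ESC, 11 of the 17 rose and 4 fell, with a median of 1.21.

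Of 13 listed amnion genes 10 were tested, and 6 rose and 2 fell in PGCLC_d3 relative to EpiLC, not far from the shares of 47.3% and 27.6% among all tested genes, with a median of 2.08 against 0.21. Bambi, a pseudoreceptor of the TGF-beta family, was measured at 217 and 246 TPM in PGCLC_d3 and 17.2 and 15.48 TPM in EpiLC (3.74, SE 0.09, limma adjusted p = 1.01e-09). Bmp4 was measured at 72.6 and 68.5 TPM in PGCLC_d3 and 6.11 and 6.94 TPM in EpiLC (3.25, SE 0.08, limma adjusted p = 1.01e-09). The Notch target Hey1 rose by 5.45 (SE 0.11, limma adjusted p = 2.99e-10) and Tbx3 by 1.58 (SE 0.12, limma adjusted p = 1.28e-06). In ESC the means were 343 TPM for Tbx3, 95.6 TPM for Bmp4, 15.1 TPM for Bambi and 1.26 TPM for Hey1. In PGCLC_d3 they were 3.23, 70.5, 232 and 67.4 TPM. Tbx3, like Esrrb, is also on the list of naive ESC markers. Isl1, a factor required in primate amnion, stood at 0.744 and 0.703 TPM in PGCLC_d3 and 0.728 and 0.505 TPM in EpiLC (0.10, SE 0.13, limma adjusted p = 0.536). Gabrp, a marker of human amnion-like cells, did not exceed 0.146 TPM in any library. In PGCLC_d3ag3 relative to PGCLC_d3, 6 of the 10 fell and 3 rose, with a median of -0.66. In EpiLC relative to ESC, 2 rose and 6 fell, with a median of -0.50.

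All 8 listed BMP response genes rose in PGCLC_d3 relative to EpiLC, with a median of 4.56 against 0.21 for all tested genes, of which 47.3% were higher. In PGCLC_d3ag3 relative to PGCLC_d3, 7 of 8 fell, with a median of -2.13 against -0.18 for all tested genes, of which 44.8% were lower. Msx1, a homeobox target of BMP, was measured at 173 and 177 TPM in PGCLC_d3 and 0.409 and 0.636 TPM in EpiLC (6.86, SE 0.12, limma adjusted p = 1.93e-10). Id2 fell to 59.9 and 67.1 TPM in PGCLC_d3ag3, against 503 and 563 TPM in PGCLC_d3 (-3.05, SE 0.07, limma adjusted p = 3.35e-09). Id1 fell as well (-2.31, SE 0.15, limma adjusted p = 7.71e-07), while Id3 stood at 761 and 756 TPM in PGCLC_d3ag3 and 840.0 and 905 TPM in PGCLC_d3 (-0.20, SE 0.09, limma adjusted p = 0.0597). In EpiLC relative to ESC, 3 of the 8 rose and 3 fell.

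Genes of the desmosomes and linkers that anchor keratins moved in both directions at the BMP4 step. Of 12 listed 11 were tested, and 5 rose and 4 fell in PGCLC_d3 relative to EpiLC, with a median of 0.22 against 0.21 for all tested genes. Pkp2, which encodes plakophilin 2, rose to 39.5 and 35.9 TPM in PGCLC_d3, against 5.18 and 5.40 TPM in EpiLC (2.62, SE 0.17, limma adjusted p = 5.28e-07), and the lamin gene Lmna rose too (1.10, SE 0.12, limma adjusted p = 1.47e-05). Dsc2, a desmosomal cadherin gene, fell (-1.30, SE 0.20, limma adjusted p = 0.000213), as did Jup, which encodes plakoglobin (-0.43, SE 0.12, limma adjusted p = 0.00875). Vim, the mesenchymal intermediate filament gene, was measured at 7.44 and 6.03 TPM in PGCLC_d3 and 11.2 and 17.7 TPM in EpiLC (-0.97, SE 0.21, limma adjusted p = 0.0021). In PGCLC_d3ag3 relative to PGCLC_d3, 7 fell and 1 rose, with a median of -1.14, and in EpiLC relative to ESC 7 rose and 2 fell, with a median of 1.15.

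Most of the tested genes on the surface ectoderm list fell at the BMP4 step, where Krt8 and Krt18 rose. Of 13 listed 9 were tested, and 7 fell and 1 rose in PGCLC_d3 relative to EpiLC, with a median of -1.73. Cdh1, which encodes E-cadherin, fell to 105 and 102 TPM in PGCLC_d3, against 521 and 584 TPM in EpiLC (-2.40, SE 0.08, limma adjusted p = 5.14e-09). Epcam fell by a difference of -1.24 (SE 0.05, limma adjusted p = 9.87e-09) and the claudin gene Cldn6 by -1.87 (SE 0.12, limma adjusted p = 5.11e-07). The splicing factor gene Esrp1 was the gene that rose (0.99, SE 0.09, limma adjusted p = 5.27e-06). Tp63, the master factor of stratified epithelium, did not exceed 0.576 TPM. Tp63, Krt5, Krt14 and Ovol1 did not pass the filter and were not tested. Their means in PGCLC_d3 were 0.0677, 0.0220, 0.895 and 0.610 TPM, against 0.118, 0, 0.314 and 0.126 TPM in EpiLC. In PGCLC_d3ag3 relative to PGCLC_d3, 7 of the 9 fell and 2 rose, and in EpiLC relative to ESC 7 rose and 2 fell.

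**Figure D4:**
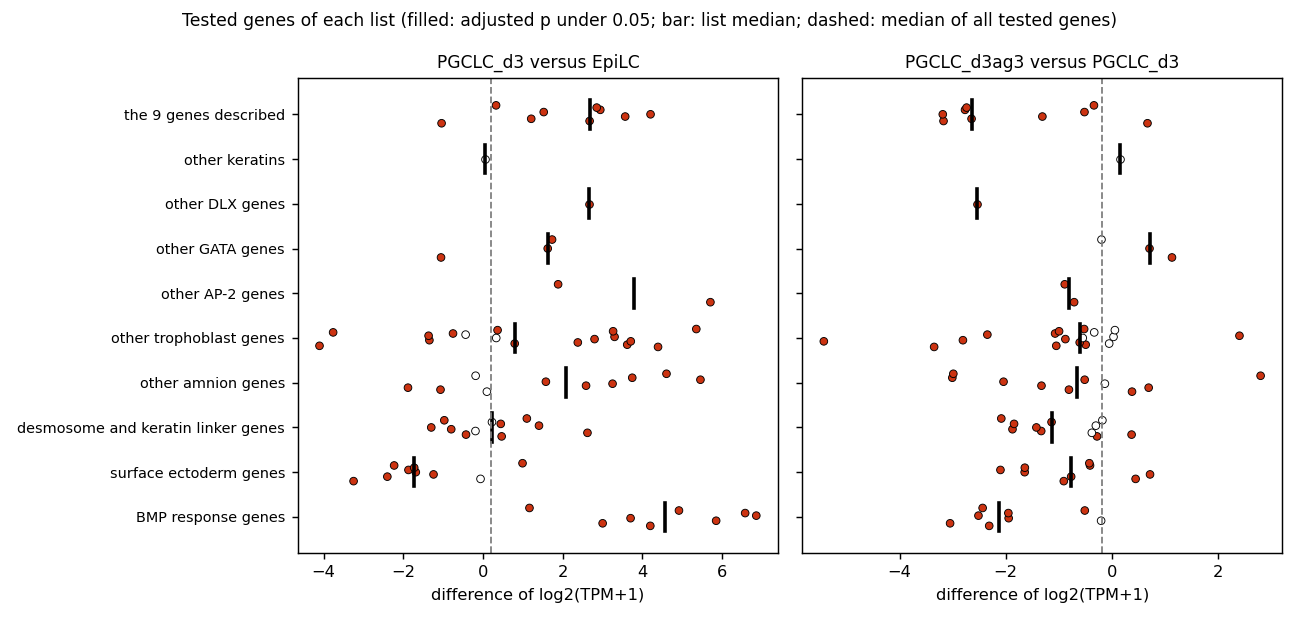
Difference of log2(TPM+1) for the tested genes of the 9 genes described and of 9 other gene lists, left for PGCLC_d3 versus EpiLC and right for PGCLC_d3ag3 versus PGCLC_d3. Filled points have an adjusted p under 0.05, short bars are list medians, and the dashed line is the median of all tested genes, 0.21 on the left and -0.18 on the right. All 8 BMP response genes lie right of 0 on the left.

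The libraries are bulk RNA of sorted or whole cultures, so fewer cells of a type and less RNA per cell cannot be told apart. Gonadal somatic markers summed to between 15.3 and 18.8 TPM in PGCLC_d3ag3 and between 12.7 and 13.9 TPM in PGCLC_d3. Of the 12 markers, 6 had a mean of at least 1 TPM in PGCLC_d3ag3 and 4 in PGCLC_d3. Of the list, Amh had a mean of 2.17 TPM in PGCLC_d3ag3 and 0.179 TPM in PGCLC_d3, Wt1 1.22 and 0.0505 TPM, Nr5a1 0.807 and 0.0738 TPM, Emx2 0.472 and 0.0483 TPM, Foxl2 0.375 and 0.0344 TPM, and Upk3b 0.0734 and 0 TPM. Gata4, as given above, was higher in PGCLC_d3ag3 too, while Star had 0.646 TPM in PGCLC_d3ag3 and 3.14 TPM in PGCLC_d3, and Fst 4.13 and 4.90 TPM. In EpiLC the list summed to between 13.5 and 14.0 TPM, and Nr5a1 was measured at 8.13 and 8.23 TPM. The part of gonadal somatic cells in the PGCLC_d3ag3 values of the 9 genes was not tested. Endothelial markers summed to between 136 and 139 TPM in PGCLC_d3ag3 and between 20.3 and 21.1 TPM in PGCLC_d3, and Emcn was listed at 0 in every library. In ESC they summed to between 158.0 and 158.3 TPM. Pecam1 had means of 137 TPM in PGCLC_d3ag3, 17.8 TPM in PGCLC_d3 and 104 TPM in ESC. Cdh5 had 0.289 TPM in PGCLC_d3ag3 and 1.69 TPM in PGCLC_d3, Kdr 0.248 and 0.907 TPM, Tek 0 and 0.0328 TPM, and Tie1 0.382 and 0.227 TPM. The part of endothelial cells was not tested. Blood markers summed to between 44.8 and 46.2 TPM in PGCLC_d3ag3 and between 4.30 and 4.65 TPM in PGCLC_d3. Most of it was Hba-a2 and Hbb in PGCLC_d3ag3 and Cd68 and Hba-a2 in PGCLC_d3. Hba-a2 had means of 34.7 TPM in PGCLC_d3ag3, 1.42 TPM in PGCLC_d3 and 12.1 TPM in ESC. Hbb had 8.05 TPM in PGCLC_d3ag3 and 0 TPM in PGCLC_d3, Gata1 1.25 and 0.0245 TPM, and Ptprc 0.0270 and 0 TPM. Cd68 had 0.285 and 1.79 TPM and Alas2 1.22 and 1.24 TPM, and Itgam was listed at 0 in every library. The part of blood cells was not tested. Fibroblast and feeder markers summed to between 255 and 282 TPM in EpiLC and between 656 and 890 TPM in ESC, most of it Fn1. Col3a1 had means of 22.1 TPM in EpiLC and 9.66 TPM in ESC, Col1a1 10.4 and 10.5 TPM, Col1a2 14.8 and 2.77 TPM, Dcn 12.7 and 0.274 TPM, and Lum 2.38 and 0.0853 TPM, and Thy1 was listed at 0 in both ESC libraries. The part of feeder cells in the ESC levels of Krt19 and Tfap2a was not tested.

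The 2 genes with the highest Pearson r over the 8 libraries were taken for each member, among genes with a stage mean of at least 10 TPM. Dlx3 was most like Trafd1 (r = 0.9989) and Dpp6 (r = 0.9978). Gata2 was most like Asb7 (0.9988) and Emc10 (0.9972), and Gata3 like Slc7a14 (0.9967) and Wnt5a (0.9965). Krt8 was most like Plekhm2 (0.9953) and Map1b (0.995), and Krt18 like Calca (0.9978) and Pick1 (0.9947). Krt19 was most like Smug1 (0.9984) and Il6st (0.9962), and Tfap2a like Hoxa9 (0.9966) and B4galt1 (0.9957). Krt7 was most like Mrpl17 (0.985) and Dhrs7 (0.9782), and Dlx5 like Xrcc1 (0.984) and Prmt7 (0.9809). The 8 libraries fall into 4 stages of 2, and each value was picked as among the highest over all such genes, so these are descriptions without a test.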

How the data were processed

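Stages and replicate numbers are those of the titles. RNA came from PicoPure extraction, and SMART-Seq v4 cDNA went into KAPA Hyper Prep, per the labels' protocols. According to the submitters' processing notes, the tools were bcl2fastq 2.20, cutadapt 1.1.6, HISAT2 2.1.0 and featureCounts of Subread 1.6.5, with build rn7; strand and treatment of shared reads are not given in the sources used here. The deposited table holds log2 values, log2(TPM+1), made by the authors; TPM were recovered from them and summed to 982639 to 984135 over named genes. The 11066 blank rows hold no values and were left out.

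Genes with at least 1 TPM in at least 2 of 8 libraries (13571 of 22228) were fitted with limma 3.58.1 in R 4.3.3 (lmFit, eBayes with trend, two-sided), all 4 groups together, with 4 residual degrees of freedom and a median prior of 5.46. Calls need a Benjamini-Hochberg adjusted p under 0.05 over all tested genes of 1 of 6 comparisons. Differences are of log2(TPM+1) and understate changes of genes with low values. Alternatives covered the filter, the pseudocount, scaling, trend, libraries fitted, the replicate block and each library left out. Promoters and gene neighbours come from RefSeq (GRCr8). The 9 genes, the lists and the motifs were chosen with earlier results of these data known. From each gene and marker list the text names the up to 4 genes with the highest stage mean, some fixed genes and any gene alone in passing, plus markers needed to describe a list.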

Additional observations from a re-analysis of the deposited data

How the results depend on the processing

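Every count of called genes and of called members stayed within 1.5 times of its value under each alternative. Leaving out each library in turn gave 7985 to 9533 called genes for EpiLC versus ESC, 9055 to 10489 for PGCLC_d3 versus EpiLC, 8233 to 9521 for PGCLC_d3ag3 versus PGCLC_d3, 9494 to 10750 for PGCLC_d3 versus ESC, 9780 to 10349 for PGCLC_d3ag3 versus ESC and 9734 to 10497 for PGCLC_d3ag3 versus EpiLC. Of the 9 members, 6 to 7, 8 to 9, 6 to 9, 9, 6 to 7 and 5 to 6 were called in the same order. Of 852 values of single members under alternatives, 810 kept direction and side of the threshold, 26 lost a call, 11 gained one and 5 changed sign. All 5 were uncalled with and without the alternative, and the cause was not tested. Krt18 in PGCLC_d3ag3 versus ESC was -0.038 under median-of-ratios rescaling. Over the libraries left out in turn it ranged from -0.02 (without PGCLC_d3ag3 replicate 1) to 0.14. Gata3 ranged from -0.02 to 0.394 in PGCLC_d3ag3 versus ESC and from -0.094 to 0.32 versus EpiLC, negative without PGCLC_d3ag3 replicate 2. Tfap2a in PGCLC_d3ag3 versus EpiLC ranged from -0.033 to 0.01, positive without EpiLC replicate 1. With a pseudocount of 0.1, Gata2 gained a call in EpiLC versus ESC (limma adjusted p = 0.00778). With at least 5 TPM in 2 libraries as the filter, Krt7 and Dlx5 gave no value. Replicate differences of 2 stages correlated at -0.037 to 0.066 and no label pairs the libraries, so the numbers are not taken as pairs. With the replicate block 6, 9, 9, 9, 7 and 6 members were called, and the 1 changed call was Krt7 in PGCLC_d3ag3 versus EpiLC (limma adjusted p = 0.0458). Of 1728 list counts, 81 moved by over 1.5 times. Genes below 1 TPM rest on few reads, and totals are unknown.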

Other observations

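Of the 46 keratin genes beside the 4 described, 10 of the 50 in all were listed at 0 in every library and 6 of the 46 passed the filter. The following 5 of those 6, all but Krt10, were chosen after their values were seen, and most passed the filter through 1 stage, so no test is given. Krt12, the type I keratin of cornea, was measured at 14.8 and 10.6 TPM in PGCLC_d3ag3 and 0.199 and 0.173 TPM in PGCLC_d3, and was listed at 0 in ESC and EpiLC. Krt27, a type I keratin of the inner root sheath of hair, was measured at 9.77 and 10.4 TPM in PGCLC_d3ag3 and 1.08 and 0.622 TPM in PGCLC_d3. Both PGCLC_d3ag3 libraries thus stood above both PGCLC_d3 libraries for these 2 genes, at the step where Krt8, Krt18 and Krt19 fell. Krt36 and Krt32, type I keratins of hair, were highest in ESC, at 12.8 and 10.4 TPM and at 1.47 and 1.22 TPM, and no other library exceeded 0.0360 TPM for either. Krt77, a type II keratin, was measured at 2.22 and 2.81 TPM in EpiLC and was listed at 0 in the other 6 libraries.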
